A study of Mus musculus with 18 samples.

Results

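The S100 genes encode small calcium-binding proteins with paired EF-hand motifs. The 10 genes described here (S100a8, S100a9, S100a7a, S100a3, S100a4, S100a6, S100a10, S100a11, S100a14 and S100a16) were taken by symbol from the gene table of a mouse skin carcinogenesis series, and all 10 were found among its 14521 named genes. Littermate female SKH-1E mice, an outbred hairless strain, were irradiated chronically with solar simulators from adulthood and killed after irradiation had ended. Each of these 6 mice (numbers 2, 3, 7, 8, 9 and 10) gave 1 library of non-lesional chronically irradiated skin (CHR), 1 of a papilloma (PAP), which is a benign epidermal outgrowth, and 1 of a cutaneous squamous cell carcinoma (SCC), all of which had therefore received ultraviolet light. The 18 libraries held 15.4 to 21.0 M recovered reads. Levels are given as normalised reads, that is, reads recovered from the deposited values and divided by the size factor of the library. Differences are log2 fold changes of the deposited values from a limma fit with a term for each mouse, with p-values adjusted over all 14521 genes and called at 0.05. The deposited scale compresses low values, so that a fold change of a weakly expressed gene is understated.

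S100 proteins form dimers that change shape when calcium binds and then grip partner proteins inside the cell, while several are also released and act as danger signals. S100a8 and S100a9 pair as calprotectin, which withholds zinc and manganese from microbes, is stored in large amounts by neutrophils and is induced in stressed or hyperproliferating keratinocytes. Most S100 genes lie in a cluster beside the epidermal differentiation complex, which also holds the genes of the cornified envelope. In the GENCODE annotation of GRCm38 all 10 genes are on chromosome 3. S100a14 (chr3:90526856-90528837), S100a16, S100a3, S100a4 (chr3:90603771-90606045), S100a6, S100a7a (chr3:90654017-90658669), S100a8 (chr3:90668978-90670035) and S100a9 (chr3:90692632-90695721) follow each other in this order. S100a11 (chr3:93520488-93526287) and S100a10 (chr3:93555080-93564643) lie farther along, and S100a9 is the only member of the 10 on the minus strand.

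Sequences upstream of S100a8, S100a9 and S100a4 are shown because the first 2 of these genes changed together and the third changed in the opposite direction between CHR and PAP. RefSeq windows of 250 bases before the annotated start (GRCm38.p6) existed for 8 of the 10 members, in 12 windows. They were searched on both strands for the TATA box as TATAAA. The AP-1 motif was searched as TGANTCA and the C/EBP motif as TTGCNNAA. The STAT motif was searched as TTCNNNGAA. The ETS motif was searched as CCGGAA, and no matches of different motifs overlapped in these windows. Capitals mark matches. The S100a8 window is printed up to chr3:90668977, where the first GENCODE exon begins, followed by 30 bases around its TATA box (chr3:90669029-90669058, bases -42 to -13 from the RefSeq start at 90669071).
S100a8, chr3:90668821-90668977, plus strand: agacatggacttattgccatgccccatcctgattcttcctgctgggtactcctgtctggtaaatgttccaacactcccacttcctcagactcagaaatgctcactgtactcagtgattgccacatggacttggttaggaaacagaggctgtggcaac
S100a8, bases around the TATA box: caagctttcctcTATAAAagcagctgacac
S100a9, chr3:90695722-90695971, minus strand: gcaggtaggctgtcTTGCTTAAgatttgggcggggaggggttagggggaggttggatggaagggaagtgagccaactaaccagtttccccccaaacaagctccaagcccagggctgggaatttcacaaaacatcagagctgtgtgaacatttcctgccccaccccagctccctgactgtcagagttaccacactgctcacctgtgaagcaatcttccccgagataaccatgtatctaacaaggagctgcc
S100a4, chr3:90603520-90603769, plus strand: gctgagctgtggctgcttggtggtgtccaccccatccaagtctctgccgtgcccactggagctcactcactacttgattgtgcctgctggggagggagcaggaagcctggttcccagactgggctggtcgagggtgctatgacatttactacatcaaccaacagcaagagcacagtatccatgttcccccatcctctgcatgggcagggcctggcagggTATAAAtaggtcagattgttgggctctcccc

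TATAAA was found at bases -30 to -25 of S100a8 and at bases -31 to -26 of S100a4, and in 3 of the 12 member windows against 12.4% of all 32841 windows. The S100a9 window held no TATAAA but held the C/EBP letters TTGCTTAA at bases -236 to -229, a motif present in 9.57% of all windows. AP-1 letters occurred upstream of S100a11 at bases -136 to -130 and -38 to -32, and upstream of an S100a16 start (2 of 12 windows, against 6.75% of all windows). S100a7a held a STAT match, TTCCAGGAA, at bases -169 to -161 (7.02% of all windows hold this motif). ETS letters were in 0 of the 12 windows, against 12% of all windows. These matches describe the letters in the windows and say nothing of factor binding.

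The first comparison asked how papillomas differ from the irradiated skin around them. Of the 10 genes, 6 rose in PAP over CHR (S100a8, S100a9, S100a7a, S100a14, S100a16 and S100a11), where 23.3% of all genes were called higher. S100a4 fell, where 29.3% of all genes were called lower. The median log2 fold change of the 10 genes was 0.55, against 0.0014 over all genes. In SCC over CHR 3 of the 10 rose (S100a8, S100a9 and S100a7a), with 15.8% of all genes called higher, and 0 were called lower by limma, with 22.7% of all genes called lower. In SCC over PAP only S100a4 was called higher, with 8.75% of all genes called higher, and 0 were called lower, with 1.10% of all genes called lower. At an unadjusted p under 0.05, 1 of the 10 was lower in each of these last 2 comparisons (S100a4 in SCC against CHR and S100a14 in SCC against PAP), and limma-voom on the recovered reads also called 0 lower in both.

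**Figure D1:**
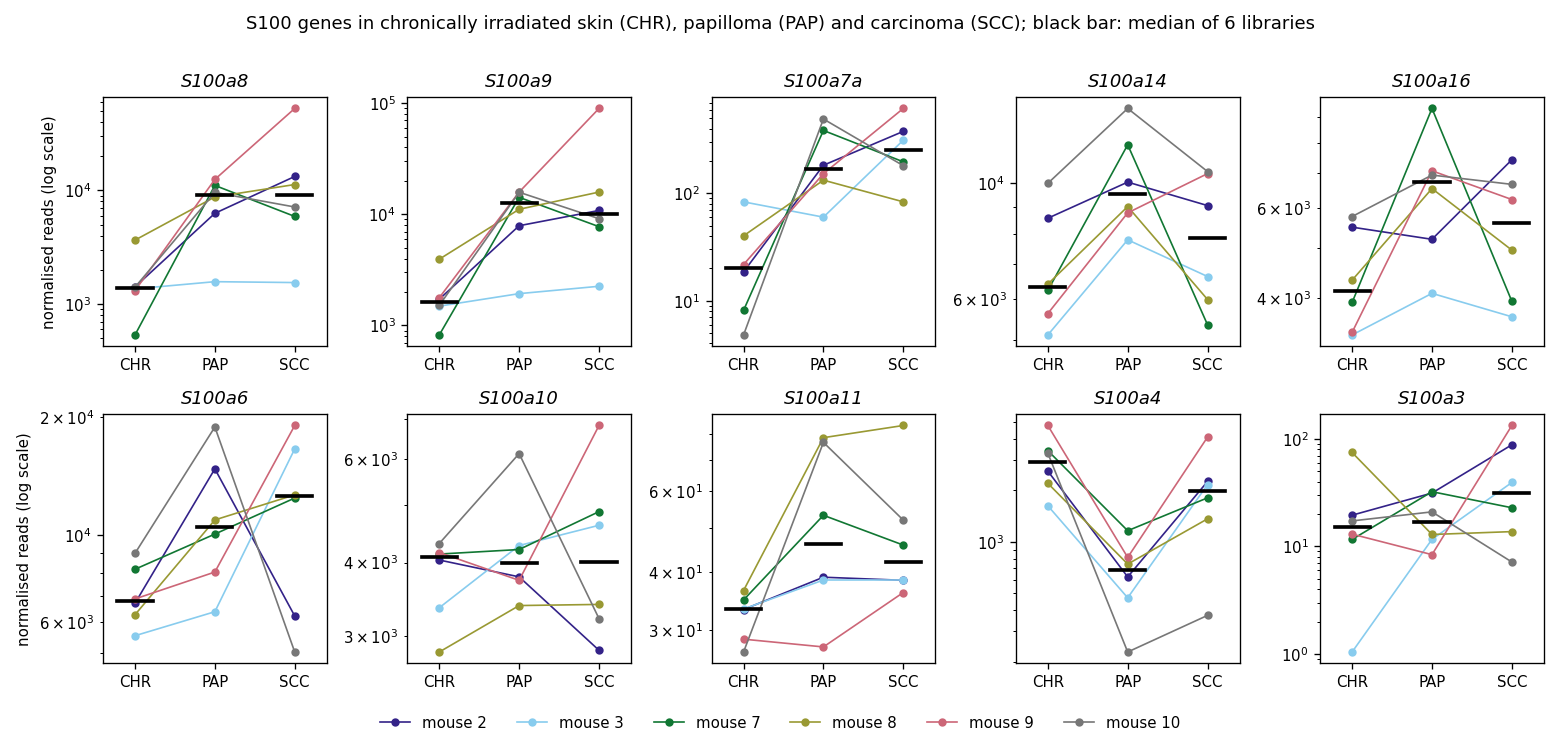
Normalised reads (log axis, scaled separately for each gene) of the 10 S100 genes in CHR, PAP and SCC, with the 3 libraries of a mouse joined by a line and the median of 6 libraries as a black bar. S100a8, S100a9 and S100a7a rise from CHR to the lesions, S100a4 is lowest in PAP, and mouse 9 has the highest SCC level of S100a8, S100a9, S100a7a, S100a3, S100a4, S100a6 and S100a10.

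S100a8 and S100a9 rose in papillomas and in carcinomas over CHR, with the largest fitted increases of the 10 genes on the deposited scale. S100a8 stood in CHR at 1418, 1364, 537, 3655, 1316 and 1410 normalised reads in mice 2, 3, 7, 8, 9 and 10, in PAP at 6285, 1577, 11046, 8750, 12473 and 9587, and in SCC at 13243, 1549, 5902, 11248, 52413 and 7142. Every mouse had more S100a8 in its papilloma and in its carcinoma than in its CHR skin, yet both lesions of mouse 3 stayed within the CHR range and the SCC of mouse 9 stood far above all other libraries. The mean within-mouse fold, computed on normalised reads + 1, was 5.03 in PAP and 6.45 in SCC. In the limma fit S100a8 rose by 2.26 ± 0.51 (log2, SE, n = 6 mice, adjusted p = 0.0026) in PAP over CHR and by 2.62 ± 0.51 (adjusted p = 0.0018) in SCC over CHR. Between SCC and PAP the difference was 0.36 (95% interval -0.75 to 1.47, adjusted p = 0.73), with 3 of 6 mice higher in SCC, an interval that leaves room for more than a doubling.

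S100a9, the calprotectin partner, followed the same course at a slightly higher read count. Its CHR libraries held 1723, 1493, 821, 3947, 1777 and 1516 normalised reads in the same order of mice, its PAP libraries 7903, 1934, 14233, 11113, 15869 and 15817, and its SCC libraries 10844, 2253, 7749, 15871, 89806 and 9145. The within-mouse fold was 5.47 in PAP and 6.92 in SCC, in each case with 6 of 6 mice higher. The fitted rise was 2.4 ± 0.51 (adjusted p = 0.0017) in PAP and 2.74 ± 0.51 (adjusted p = 0.0013) in SCC over CHR, and the difference between SCC and PAP was 0.34 (95% interval -0.77 to 1.44). The calls of S100a8 and S100a9 against CHR held without any single mouse. Without mouse 3 the PAP rise of S100a8 was 2.68, and without mouse 9 its SCC rise was 2.10.

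The read ratio of S100a9 to S100a8 stayed near 1 while the level of both moved severalfold. The ratio in CHR was 1.22, 1.09, 1.53, 1.08, 1.35 and 1.08 in mice 2, 3, 7, 8, 9 and 10, in PAP 1.26, 1.23, 1.29, 1.27, 1.27 and 1.65, and in SCC 0.819, 1.45, 1.31, 1.41, 1.71 and 1.28. S100a9 had more reads than S100a8 in 17 of 18 libraries, the exception being the SCC of mouse 2. The mean within-mouse log2 difference of the ratio was 0.12 ± 0.30 (SD, n = 6) in PAP against CHR (two-sided exact sign-flip permutation test, p = 0.44, adjusted over 3 comparisons p = 0.80), -0.022 ± 0.40 in SCC against PAP (exact p = 0.94) and 0.10 ± 0.40 in SCC against CHR (exact p = 0.53). With 6 mice this exact permutation test cannot go below p = 0.03125.

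The pair took a larger part of the reads of the 10 genes in lesions than in CHR, in 6 of 6 mice for PAP and in 5 of 6 for SCC. S100a8 and S100a9 together held 12.2 ± 7.08% of member reads in CHR (SD, n = 6), 34.5 ± 12.5% in PAP and 41.7 ± 21.3% in SCC. In CHR the share was 4.98 to 25.5%, in PAP 13.2% (mouse 3) to 49.7%, and in SCC 10% (mouse 3) to 75% (mouse 9). Of all reads of a library the pair took 0.0193 ± 0.0118% in CHR, 0.106 ± 0.0478% in PAP and 0.219 ± 0.300% in SCC, the last of which included 0.823% in mouse 9. Without mouse 9 the pair took 0.0969 ± 0.0475% of all reads in PAP and 0.0976 ± 0.0519% in SCC (SD, n = 5).

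**Figure D2:**
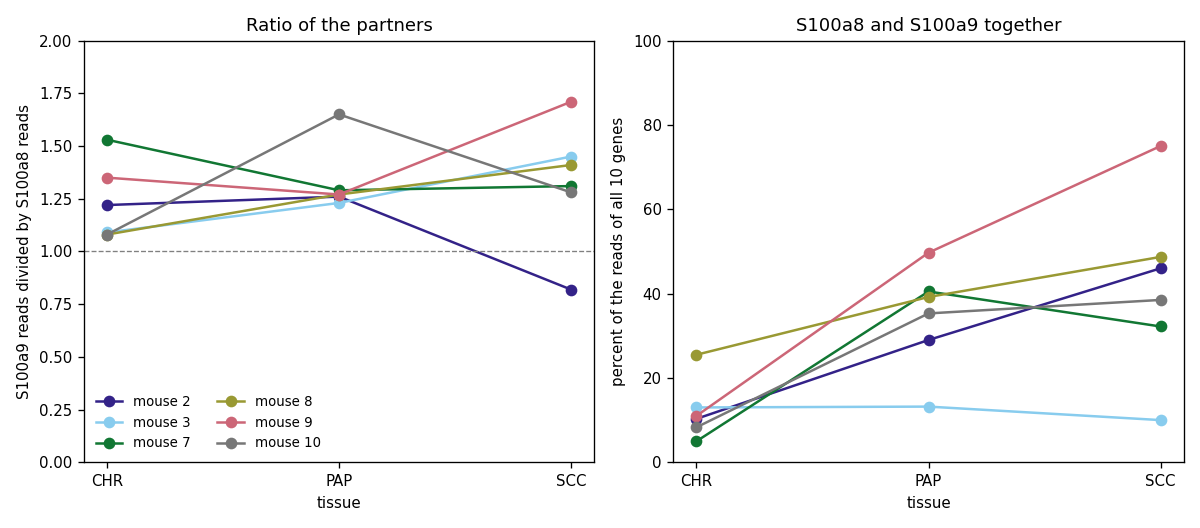
Left, reads of S100a9 divided by reads of S100a8 in each library (dashed line at 1); right, S100a8 and S100a9 together as a percent of the reads of all 10 S100 genes; lines join the libraries of a mouse. The ratio runs from 0.819 to 1.71 with no shared direction over tissues, while the share averages 12.2% in CHR, 34.5% in PAP and 41.7% in SCC and is lower in SCC than in PAP in mice 3 and 7.

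S100a7a, a relative of human psoriasin that keratinocytes make under inflammation, rose from a low level. CHR libraries held 18.6, 83.3, 8.13, 40.2, 21.7 and 4.8 normalised reads, PAP libraries 183, 60.0, 385, 133, 152 and 492, and SCC libraries 377, 312, 196, 83.3, 617 and 181. The lowest SCC value (mouse 8) and the highest CHR value (mouse 3) met at 83.3, and mouse 3 alone had less in PAP than in CHR. The fitted rise was 1.68 ± 0.42 (adjusted p = 0.0047) in PAP and 1.97 ± 0.42 (adjusted p = 0.0030) in SCC over CHR. On recovered reads, where low values are not compressed, limma-voom gave 3.05 and 3.64, and the within-mouse fold was 9.01 and 11.8. The difference between SCC and PAP was 0.28 (95% interval -0.63 to 1.19).

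S100a14 and S100a16, both expressed in epithelia, rose in papillomas. S100a14 stood in CHR at 8564, 5117, 6228, 6403, 5624 and 9989 normalised reads, in PAP at 10044, 7786, 11843, 9017, 8770 and 13901, and in SCC at 9056, 6622, 5350, 5983, 10428 and 10522. All 6 mice had more in PAP than in CHR, with overlapping groups, and 5 of 6 had less in SCC than in PAP. The rise in PAP was 0.56 ± 0.15 (adjusted p = 0.0077), and the SCC to PAP difference was -0.38 ± 0.15 (adjusted p = 0.14), which was called only when mouse 9 was left out (-0.50, adjusted p = 0.042).

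S100a16 held 5499, 3394, 3925, 4337, 3434 and 5767 normalised reads in CHR, 5208, 4089, 9355, 6536, 7077 and 6943 in PAP, and 7435, 3682, 3946, 4962, 6223 and 6660 in SCC. Its papilloma level exceeded the CHR level in 5 of 6 mice, mouse 2 being the exception. The rise of 0.55 ± 0.18 had an adjusted p of 0.022, and this call was lost without mouse 7 (adjusted p = 0.054), mouse 8 (0.062) or mouse 9 (0.076). The SCC level was 1.23-fold that of CHR within mice, with 6 of 6 mice higher, and was not called (0.30 ± 0.18, adjusted p = 0.21).

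The direction of these changes depended on the reference. When each library was centred on 12 epithelial reference genes (Krt5, Krt14, Itgb4, Lamb3 and other genes of keratinocytes), the median of all genes moved by -1.29 in PAP against CHR, and S100a14 and S100a16 turned to -0.73 and -0.74, both called lower, which is above the median of all genes on that scale. S100a8 and S100a9 stayed called higher on that scale, at 0.98 (adjusted p = 0.040) and 1.11 (adjusted p = 0.022), while S100a7a (0.40) was no longer called in PAP. In SCC against CHR, where centring moved the median by -0.69, all 3 stayed called at 1.95, 2.07 and 1.30. The epithelial reference genes themselves rose in PAP, with 11 of 12 called higher, against 23.3% of all genes. Their sums were 295975 to 462861 normalised reads in CHR, 735104 to 1160392 in PAP and 271441 to 800808 in SCC. Because the libraries come from whole tissue, fewer cells of a type and less RNA per cell cannot be told apart.

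S100a6 (calcyclin), S100a10 (the p11 light chain that forms a tetramer with annexin A2) and S100a11 (a partner of annexin A1) work with annexins and other membrane-binding proteins. S100a6 held 5538 to 8982 normalised reads in CHR (median 6787), and stood at 6376 to 18859 (median 10494) in PAP and 5033 to 19030 (median 12547) in SCC. It was higher in PAP in 6 of 6 mice, but the difference of 0.62 ± 0.35 was not called (adjusted p = 0.16). It was called only when the fit was restricted to CHR and PAP (adjusted p = 0.013). In SCC the mice diverged, since the carcinomas of mice 2 and 10 (6219 and 5033) lay below their own CHR skin (6701 and 8982) while the other 4 held 12429 to 19030. Without mouse 10 the SCC to CHR difference was 0.91 (adjusted p = 0.038), against 0.62 ± 0.35 (adjusted p = 0.18) with all mice.

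S100a10 varied less between libraries than S100a6, at 2822 to 4310 normalised reads in CHR, 3383 to 6122 in PAP and 2841 to 6832 in SCC. Its differences were 0.15 (95% interval -0.24 to 0.54) in PAP and 0.12 (-0.27 to 0.51) in SCC against CHR, and no single-mouse omission made either a call. On the epithelial-centred scale it stood at -1.14 in PAP and was called lower, as were 13397 of the 14521 genes.

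S100a11 was counted at only 23 to 97 reads in any library, or 26.9 to 36.5 normalised reads in CHR, 27.6 to 78.4 in PAP and 36.2 to 83.3 in SCC. The annotation holds a processed pseudogene of this gene, S100a11-ps, on chromosome 12, and reads that fit both cannot be assigned uniquely, so these counts are uncertain. The PAP rise of 0.29 ± 0.11 (adjusted p = 0.035) was lost without the mouse term (adjusted p = 0.070), with only CHR and PAP in the fit (0.079) and without mouse 7, 8 or 10 (0.086, 0.12 and 0.14), and on the epithelial-centred scale the value was -1.0, called lower.

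S100a4, known as metastasin or fibroblast-specific protein and carried by stromal cells, macrophages and migrating tumour cells, followed the opposite course. CHR libraries held 2594, 1627, 3414, 2201, 4789 and 3299 normalised reads in mice 2, 3, 7, 8, 9 and 10, PAP libraries 625, 472, 1163, 743, 812 and 228, and SCC libraries 2256, 2164, 1810, 1365, 4099 and 372. All PAP values lay below all CHR values, and each mouse had more in its carcinoma than in its papilloma. The papilloma level was 0.214 of the CHR level within mice, a log2 change of -2.08 ± 0.33 (adjusted p = 0.00020), called under each of the 15 other settings. The carcinoma level was 2.70-fold the papilloma level (1.33 ± 0.33, adjusted p = 0.026). That call was lost without the mouse term (adjusted p = 0.070), with only SCC and PAP in the fit (0.051), and without mouse 2, 3, 7, 8 or 9 (0.068 to 0.099), and held without mouse 10 (1.48, adjusted p = 0.0027). SCC stayed below CHR in 5 of 6 mice (0.577 of the CHR level), a difference that was not called (-0.75 ± 0.33, adjusted p = 0.093).

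**Figure D3:**
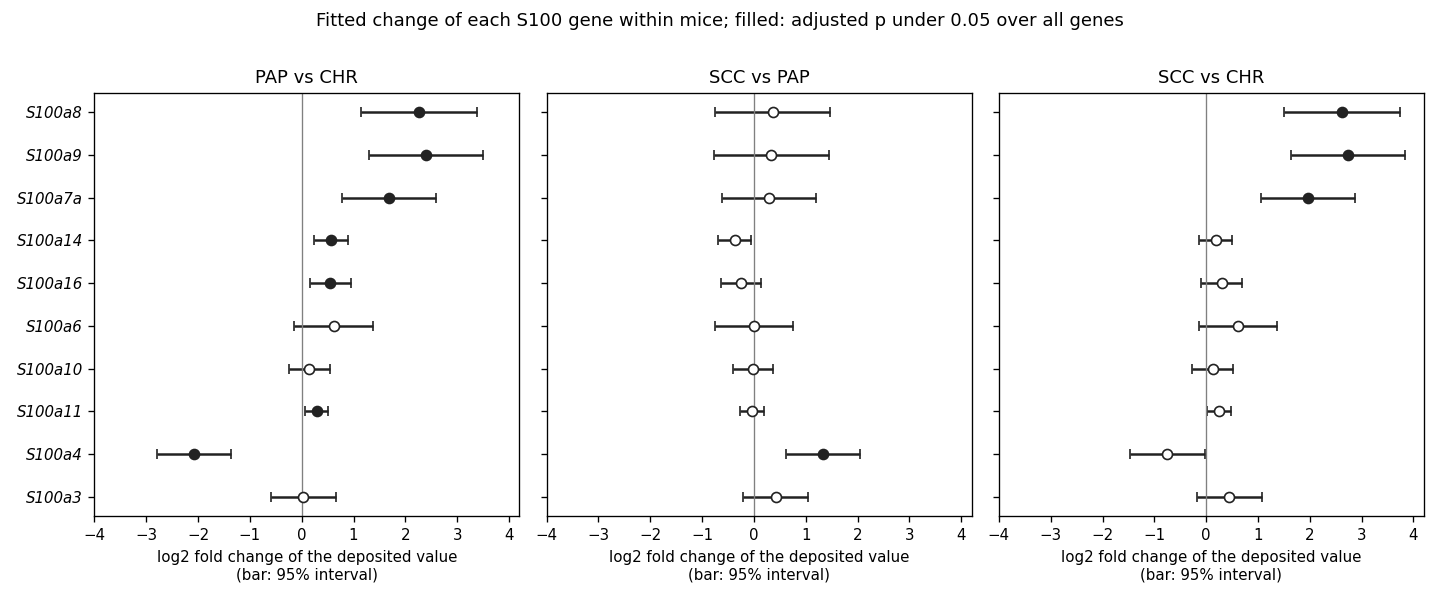
Fitted log2 fold change (deposited values) of each S100 gene in the 3 comparisons, with its 95% interval; filled points have an adjusted p under 0.05 over all genes. Filled points lie right of 0 for S100a8, S100a9, S100a7a, S100a14, S100a16 and S100a11 in PAP vs CHR and left of 0 for S100a4, which is the filled point in SCC vs PAP.

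Markers of stromal cells moved with S100a4 between tissues, and in some but not all libraries within a tissue. Of 11 macrophage genes 10 fell in PAP and 9 were called higher in SCC over PAP. Their sum ran from 49664 to 78562 normalised reads in CHR, from 2321 to 11342 in PAP and from 6872 to 77012 in SCC. Of 10 dermal fibroblast genes 9 fell in PAP and 5 were called higher in SCC over PAP, with sums of 165694 to 360900 in CHR, 6868 to 180789 in PAP and 23260 to 528406 in SCC. Among all genes 29.3% were called lower in PAP over CHR and 8.75% higher in SCC over PAP. The calls in SCC over PAP depended on single mice, with 5 macrophage and 0 fibroblast genes called without mouse 3, 0 of both without mouse 7, without mouse 8 or with only SCC and PAP in the fit, and 7 and 2 without the mouse term. Without mouse 2, 3 fibroblast genes were called, and without mouse 9, 9. The PAP and the SCC of mouse 10 held the lowest macrophage and fibroblast sums of their groups as well as the lowest S100a4. The CHR skin of mouse 9 held the most S100a4 of its group (4789), with the highest macrophage sum (78562) and fibroblast sum (360900). Some other libraries did not rank alike in S100a4 and these sums. The SCC of mouse 9 had the most S100a4 of its group (4099), with macrophage and fibroblast sums of 16608 and 139905, below the SCC medians of 21414 and 265768. The SCC of mouse 7 had the highest macrophage sum of its group (77012) with 1810 of S100a4. The PAP of mouse 7 had the most S100a4 of its group (1163), with sums of 5012 and 61666. Skeletal muscle genes, a sign of deep tissue in the sample, fell from a median sum of 447954 in CHR to 744 in PAP and stood at 108375 in SCC. The part of these cells in the S100a4 values was not tested.

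**Figure D4:**
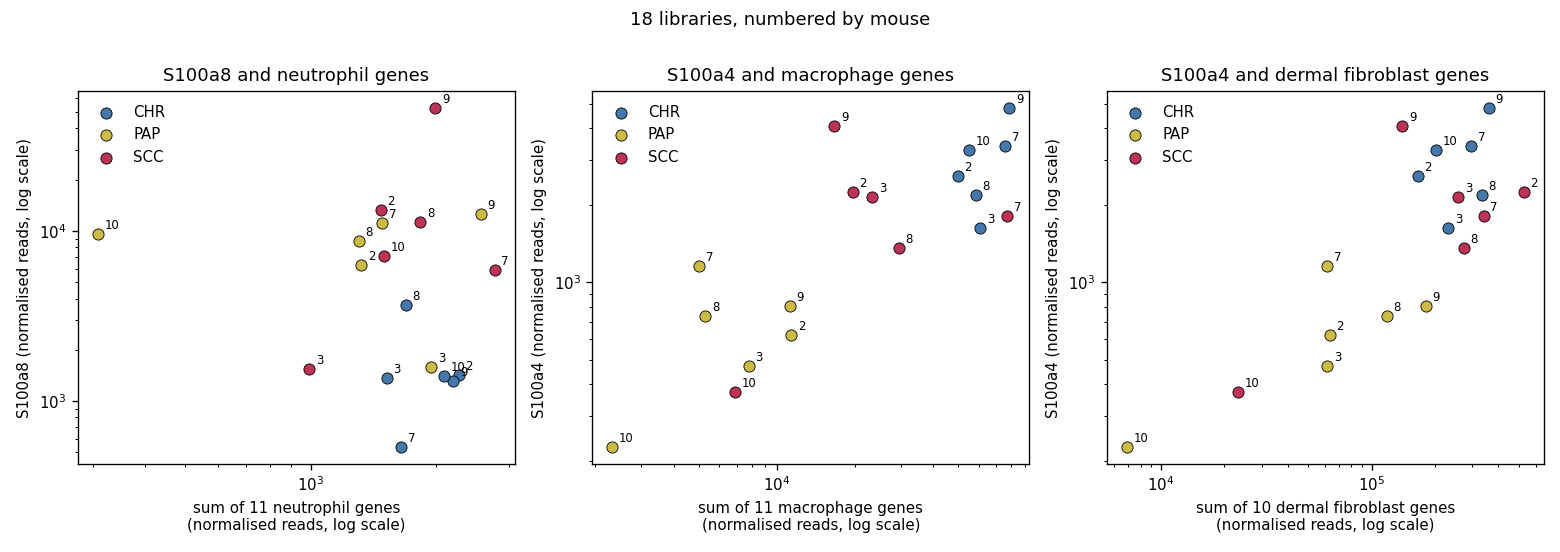
Normalised reads of S100a8 against the sum of 11 neutrophil genes (left), and of S100a4 against the sums of 11 macrophage genes (middle) and 10 dermal fibroblast genes (right), in 18 libraries numbered by mouse; all axes are logarithmic. S100a8 spans 537 to 52413 with neutrophil sums of 308 to 2767. Macrophage sums are 49664 to 78562 in CHR, 2321 to 11342 in PAP and 6872 to 77012 in SCC. Apart from the SCC of mouse 7 (77012), every PAP and SCC library lies below all CHR libraries in this sum.

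Neutrophils are a rich source of S100a8 and S100a9. Of 11 neutrophil genes in the table, 0 were called higher in PAP over CHR by limma, 0 reached an unadjusted p under 0.05 in that direction, and limma-voom also called 0 higher. Meanwhile 4 fell, namely Cxcr1 (-1.65 ± 0.22), Csf3r (-1.32 ± 0.45), Mpo (-1.15 ± 0.24) and Fpr1 (-0.76 ± 0.24). In SCC over CHR limma and limma-voom again called 0 higher and 2 lower, with 0 higher at an unadjusted p under 0.05. Limma called 15.8% of all genes higher and 22.7% lower there. In SCC over PAP 10 of the 11 had a positive difference and 3 reached an unadjusted p under 0.05, while limma and limma-voom called 0. The summed neutrophil level ran from 1524 to 2266 normalised reads in CHR (median 1893), 308 to 2562 in PAP (median 1404) and 992 to 2767 in SCC (median 1668). The granule gene Ngp held 4.93 ± 6.18 normalised reads in CHR, 13.3 ± 25.6 in PAP and 46.8 ± 101 in SCC (SD, n = 6), higher in SCC than in CHR in 6 of 6 mice and not called (0.50 ± 0.34, adjusted p = 0.26). Ltf, another granule gene, held 17.1 ± 5.89 in CHR, 23.1 ± 34.6 in PAP and 80.3 ± 115 in SCC, higher in SCC than in CHR in 4 of 6 mice and not called (0.61 ± 0.39, adjusted p = 0.23). The part of neutrophils in the S100a8 and S100a9 values was not tested. Ly6g and Elane were not analysed here.

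Of 14 genes that keratinocytes induce in wounds and psoriasis, 10 were called higher in PAP over CHR (median log2 fold change 1.33) and 8 in SCC over CHR (median 1.22). The shares of all genes called higher were 23.3% in PAP and 15.8% in SCC. Krt6b rose by 2.66 ± 0.66, Sprr2d by 2.28 ± 0.61 and Krt6a by 2.15 ± 0.33 in PAP, and Sprr2h by 2.11 ± 0.37 in SCC. Acute-phase Saa3 (-3.58 ± 0.71) and the siderophore binder Lcn2 (-2.07, adjusted p = 0.00015) went the other way in PAP against CHR, and Lcn2 stayed called lower in SCC against CHR (-1.43, adjusted p = 0.0039). The epithelial reference genes had the same median in PAP over CHR, 1.33, and the part of epithelial cells in these values was not tested. Of 10 genes of differentiated epidermis, 2 fell in PAP and 6 in SCC against CHR, among them Krt10 (-1.75 ± 0.69 in PAP and -2.66 ± 0.69 in SCC). The shares of all genes called lower were 29.3% in PAP and 22.7% in SCC.

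S100a3, a protein of the hair cuticle, was weakly expressed. CHR libraries held 19.5, 1.04, 11.6, 74.9, 13 and 17.3 normalised reads, PAP libraries 31.4, 11.6, 32.3, 12.9, 8.39 and 21.0, and SCC libraries 88.3, 39.4, 22.9, 13.7, 134 and 7.16. The groups overlapped throughout. The differences were 0.03 (95% interval -0.60 to 0.66) in PAP and 0.45 (-0.18 to 1.08) in SCC against CHR, neither of which was called. Centring on epithelial genes turned the PAP value to -1.26 (called lower), near the -1.29 of the median gene. The highest CHR value came from mouse 8, whose CHR skin also held 2316 normalised reads of 12 hair shaft and inner root sheath genes. The other CHR libraries held 54.1 to 152. Among these genes the inner root sheath keratins Krt71, Krt25 and Krt27 had the highest CHR values (1052, 556 and 275). Of the hair shaft keratins of the list, Krt33a had the highest CHR value, 75.8, against a CHR mean of 12.8 ± 30.9 (SD, n = 6). The part of hair cells in the S100a3 values was not tested. The highest SCC value came from mouse 9, where the same hair genes summed to 12.1. Padi3, the enzyme that citrullinates S100a3 in hair, rose in SCC over CHR by 2.62 ± 0.81, from 27.3 ± 29.5 to 982 ± 1061 normalised reads (SD, n = 6).

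A stage model (mixed model, unadjusted p under 0.05) calls a gene early when PAP and SCC differ from CHR in the same direction. A further difference in that direction from PAP to SCC takes a gene out of the early class, but a move back does not. S100a8, S100a9, S100a7a and S100a11 were early, as were 41.1% of all genes. The other 6 members met none of the early, late or stepwise definitions. S100a4 passed in PAP against CHR and in SCC against PAP but not in SCC against CHR, which puts it in none of these classes.

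Per kilobase of transcript, S100a6 led in CHR at 9699 ± 1737 normalised reads per kilobase (SD, n = 6), followed by S100a14 at 6598 ± 1780, S100a4 at 5999 ± 2227 and S100a10 at 5553 ± 856. S100a6 exceeded S100a14 in 6 of 6 mice, whereas S100a14 over S100a4 and S100a4 over S100a10 held in 4 of 6, within their spread. S100a16 (3898 ± 909), S100a9 (3622 ± 2059) and S100a8 (3326 ± 2169) came next, and S100a11, S100a3 and S100a7a stayed at or below 63.1 reads per kilobase on average. The place of S100a11 is uncertain, since reads that also fit its pseudogene cannot be assigned uniquely. In PAP the order changed, with S100a9 at 21474 ± 10519 and S100a8 at 17050 ± 8026 ahead of S100a6 at 15737 ± 6278, although S100a8 exceeded S100a6 in only 3 of 6 mice. S100a4 dropped to the seventh place at 1353 ± 638, below S100a16 in 6 of 6 mice. In SCC S100a9 (43567 ± 63995) and S100a8 (31377 ± 38406) again led, with an SD larger than the mean through mouse 9, and S100a4 stood at 4038 ± 2473.

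Within tissues, S100a8 and S100a9 also varied together. After each group's mean was subtracted, the log2 values of the pair had a Pearson r of 0.98 over 18 libraries, those of S100a14 and S100a16 0.80, and those of S100a6 and S100a10 0.71, whereas S100a8 and S100a4 had 0.22. These are descriptions over libraries that share mice. The genes outside the 10 whose deviations were most like those of S100a8, among genes with a mean of at least 50 normalised reads, were Sqle (r = 0.88), Ptk6 (0.86), Fam3b (0.83), Sult2b1 (0.83) and Nlrx1 (0.83). For S100a4 they were Fkbp11 (0.86), Tbx3 (0.84), Rab32 (0.82), Pdzrn3 (0.81) and Mrgprf (0.81), and for S100a3 Vsig8 (0.80), Lzts1 (0.74), Mgarp (0.74), Mt4 (0.74) and Rassf6 (0.73).

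S100a1, S100b and S100a13 fell in papillomas, 3 of the 5 genes found from a list of other S100 genes. S100a1, which regulates calcium handling in muscle, fell by 2.33 ± 0.22 on the log2 scale (adjusted p = 3.9e-06), from 596 to 1308 normalised reads in CHR to 102 to 163 in PAP, and stayed low in SCC (98.5 to 373). S100b, a marker of Schwann cells and melanocytes, fell by 1.06 ± 0.13 from 17.3 to 55.8 normalised reads to at most 5.94, and S100a13 fell by 0.77 ± 0.14 from 292 to 446 to 146 to 259. All 3 remained called lower in SCC against CHR. All 10 skeletal muscle genes fell in PAP, as S100a1 did. In SCC over PAP limma called 9 of the 10 higher and limma-voom 2, where limma called 8.75% of all genes higher. S100a1 was not called in that comparison (0.45 ± 0.22, limma adjusted p = 0.24). Of 7 Schwann cell and melanocyte genes 3 fell in PAP, as S100b did, where 29.3% of all genes were called lower. The part of muscle, Schwann cells and melanocytes in these values was not tested. The S100a7a relative S100a7l2, listed under an older name, reached at most 21.1 normalised reads and was not called. The list also held S100pbp, which is no S100 protein and was not called.

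The S100-fused proteins carry an S100 domain joined to long repeats of the cornified envelope and moved in both directions. Of 6 genes in the table, Flg2 (-3.83 ± 0.79) and Hrnr (-1.98 ± 0.60) fell in PAP over CHR, while Tchh (1.36 ± 0.48) and Crnn (1.31 ± 0.48) rose. Among all genes 29.3% were called lower and 23.3% higher. Neither rise was called without mouse 2, 7, 9 or 10. Only 1 was called without mouse 3, with only CHR and PAP fitted, or with at least 10 reads in every library. On the epithelial-centred scale 0 of the 6 were called higher and 4 lower. In SCC over CHR Flg2 and Hrnr again fell (-4.66 ± 0.79 and -2.82 ± 0.60) and Crnn rose (1.60 ± 0.48). The Crnn call was lost without mouse 7 or 9 and on the epithelial-centred scale. The median over the 6 genes was 0.11 in PAP, against 0.0014 over all genes.

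Of 9 receptors for extracellular S100 proteins, 2 rose and 3 fell in PAP over CHR. These counts are near the shares of all genes called higher (23.3%) and lower (29.3%). Bsg (basigin), a receptor for S100a9, rose by 0.91 ± 0.10, from 4030 ± 228 to 7696 ± 1033 normalised reads (SD, n = 6), higher in 6 of 6 mice. On the epithelial-centred scale, which moved the median gene by -1.29, 0 of the 9 were called higher and 8 lower. Tlr4, the innate receptor of calprotectin, fell by 2.2 ± 0.27 on the log2 scale from 1687 ± 240 to 319 ± 107 and was called higher in SCC than in PAP (1.30 ± 0.27, 960 ± 527), a call lost without mouse 3, 7 or 8 and with only SCC and PAP in the fit (adjusted p = 0.055, 0.079, 0.094 and 0.071). Cd36, a fatty acid transporter that binds the calprotectin complex, had a log2 change of -6.38 ± 0.62 in PAP, and Alcam one of -2.91 ± 0.42. Ager, which encodes the receptor RAGE, stayed at 25.9 ± 10.1 normalised reads in CHR, 18.9 ± 3.81 in PAP and 18.6 ± 10.3 in SCC and was not called. In SCC over CHR 3 of the 9 rose and 3 fell, where 15.8% of all genes were called higher and 22.7% lower. Mcam, another S100a8 and S100a9 receptor, rose by 0.89 ± 0.14. With epithelial centring 0 of the 9 were called higher and 6 lower in SCC over CHR. In PAP over CHR 10 of 11 macrophage genes and 6 of 7 fat cell genes fell, as Tlr4 and Cd36 did. The part of these cells in the receptor values was not tested.

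Of 12 intracellular partners and modifying enzymes, 2 rose and 2 fell in PAP over CHR, where 23.3% of all genes were called higher and 29.3% lower. Anxa2, the partner of S100a10, rose by 0.68 ± 0.15 from 16699 ± 1716 to 27205 ± 5833 normalised reads while S100a10 itself was not called. With epithelial centring 1 of the 12 was called higher and 10 lower in PAP over CHR. Anxa2 was lower in SCC than in PAP in 6 of 6 mice, but its call (-0.52 ± 0.15, adjusted p = 0.044) was lost by limma-voom (0.057), without the mouse term (0.052), scaled to the library total (0.065), with at least 10 reads in every library (0.057), with only SCC and PAP fitted (0.096) and without mouse 3, 7, 8 or 9 (0.074 to 0.20), and the sign turned on the epithelial-centred scale. Tgm3, a transglutaminase of the cornified envelope, rose by 2.21 ± 0.46 in PAP and by 2.19 ± 0.46 in SCC over CHR. Anxa6 fell (-2.02 ± 0.28), and its SCC over PAP difference of 1.17 ± 0.28 (adjusted p = 0.023) was not called without the mouse term (0.062), with only these groups fitted (0.051) or without mouse 3, 7 or 8 (0.075 to 0.13). Anxa1, the partner of S100a11, was not called (0.14 in PAP, 0.32 in SCC).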

How the data were processed

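Total RNA from skin, papilloma and carcinoma of 6 mice was sequenced by the authors. Per the paper's methods, paired-end reads were aligned by the authors with MOSAIK (mm10, GRCm38) and counted per gene with HTSeq. Scaling of the libraries and DESeq2's variance-stabilizing step followed, as the authors describe. What was deposited is a whole-number score on the linear scale of that transformation, in which 0 reads appear as 39. A scaling of batch medians is also described, but low values stood on whole-read steps in each library. Software versions, annotation release and strandedness were not given in the sources used here.

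The table has 14542 entries. Those whose name was only a number (21, with at most 0.236% of reads) were dropped. Reads were recovered by inverting the transformation (fitted zero level 39.13, size factors 0.835 to 1.18), and rounded to whole reads. Transforming these again gave back the deposited score exactly for 99.81% of values, with 15.4 to 21.0 M reads per library. The main test was limma on log2(value + 1) over 14521 genes, with a coefficient for each group and each mouse, all 18 libraries in the fit, and Benjamini-Hochberg adjustment. A test for raw counts was not used, because the values are transformed. Alternatives were limma-voom on the recovered reads, other pseudocounts, filters on low reads, no mouse term, only the groups compared, scaling to the library total, centring on epithelial genes, and leaving out each mouse. The scripts were tested on simulated data. Tools were limma 3.58.1, R 4.3.3 and Python 3.11.15.

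The mouse number pairs the libraries by animal. The correlation of deviations from group means between libraries of a mouse ran from -0.245 to 0.507. All 10 members were named in each comparison, with at most 4 called genes with the largest change from each list, and the 5 genes most correlated with S100a8, S100a3 and S100a4; Ager, Anxa1, Ngp, Ltf, S100a7l2 and S100pbp were named besides, as was Lcn2, after their values were seen. Members and lists were chosen with earlier results of these data known. Older symbols were used for S100a7l2 and 1 macrophage gene. Nothing in the labels speaks of separate batches. Intervals cover the spread between these 6 mice.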

Additional observations from a re-analysis of the deposited data

Results flagged for a closer look

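In 30 groups of 6 libraries (10 genes in 3 tissues), a library was flagged when its distance to the nearest other library relative to the whole range of log2 values exceeded the 95% critical value of Dixon's test, which happens by chance in about 1 group in 20. It was met in 2 groups. S100a8 in PAP was lowest in mouse 3, at 1577 normalised reads (0.665 of the range), and S100a9 in PAP was lowest in the same library, at 1934 (0.666 of the range). As the pair varied together (r = 0.98), these are not separate events. The SCC of mouse 3 was also the lowest of its group for both genes, at 1549 and 2253, and the CHR skin of that mouse (1364 and 1493) lay within its group. The cause was not tested.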

How the results depend on the processing

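Of 444 values of single S100 genes under other settings, 393 kept direction and side of the threshold, 16 lost and 7 gained a call, and 28 changed sign, of which 7 were called on 1 scale or the other and 21 were not. All 7 and 10 of the 21 came with libraries centred on the epithelial reference genes. The centred values were -1.26 (S100a3), -0.67 (S100a6), -1.14 (S100a10), -1.0 (S100a11), -0.73 (S100a14) and -0.74 (S100a16) in PAP against CHR, 0.62 (S100a6), 0.60 (S100a10), 0.58 (S100a11), 0.24 (S100a14) and 0.37 (S100a16) in SCC against PAP, and -0.22 (S100a3), -0.052 (S100a6), -0.54 (S100a10), -0.42 (S100a11), -0.49 (S100a14) and -0.37 (S100a16) in SCC against CHR, by a scale that moves the median gene by -1.29, 0.60 and -0.69. Leaving out each mouse turned the sign of S100a3 in PAP against CHR (-0.071 to 0.24) and, in SCC against PAP, of S100a9 (-0.096 to 0.58), S100a6 (-0.28 to 0.38), S100a10 (-0.20 to 0.16), S100a11 (-0.072 to 0.018) and the S100a9 to S100a8 ratio (-0.11 to 0.098), none of which was called. Scaling to the library total turned S100a6 (0.059) and S100a10 (0.039) in SCC against PAP. Centring left 2 of the 10 with a higher call and 6 with a lower call in PAP against CHR, 4 higher in SCC against PAP and 2 lower in SCC against CHR. In SCC against PAP, without the replicate block (the mouse term) and with only SCC and PAP fitted, 0 of the 10 were called higher, against 1; no other count over the 10 changed by over 1.5 times without the block. Leaving out each mouse gave 0 to 1 called higher and 0 to 1 called lower in that comparison, 4 to 6 higher in PAP against CHR and 3 to 4 in SCC against CHR. Over all genes, 1430 were called in SCC against PAP, 810 without the mouse term, 709 with at least 10 reads in every library, 471 without mouse 3, and 0 without mouse 7, without mouse 8, or with only these groups fitted, so that comparison is the least stable of the 3. The filter on reads in every library removed S100a3 and S100a7a. Exact sign-flip permutation tests within mice gave 11 of 30 differences with an unadjusted p under 0.05 on recovered reads and 11 on deposited values. After adjustment over the 30, 0 remained, a check chosen after seeing the data. With 6 mice this exact sign-flip permutation test cannot go below p = 0.03125. Differences at that floor had an adjusted p of 0.0851 in this exact permutation test. The 0 was therefore largely set by the number of mice and decides nothing about single genes. Low counts limit S100a3, S100a7a and S100a11, with under 100 reads in many libraries. For S100a11 the counts are also uncertain because of its pseudogene.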
